A study of Mus musculus with 34 samples.

Results

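The genes described here are the liver's main conjugating enzymes: the UDP-glucuronosyltransferases of the Ugt1a, Ugt2a, Ugt2b and Ugt3a groups and the cytosolic sulfotransferases. They were taken from the gene annotation by symbol, as every gene whose symbol starts with Ugt1a, Ugt2a, Ugt2b, Ugt3a or Sult, and 6 pseudogenes were left out. The rule gave 42 genes, 21 of them Ugt and 21 Sult, and used no measured value. Of these, 40 had a row among the 37583 genes of the files, and 25 passed the filter on low values that left 16813 genes for the mRNA test. The 2 genes with no row were Ugt2a1 and Sult2a7.

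Glucuronosyltransferases sit in the membrane of the endoplasmic reticulum and move glucuronic acid from UDP-glucuronic acid onto bilirubin, steroids, thyroid hormones, phenols and drugs. Sulfotransferases work in the cytosol and move sulfate from the donor PAPS onto many of the same compounds and onto bile acids. Both steps make the product more soluble in water, so that transporters can carry it into bile or blood. The Ugt1a genes share a locus in which each gene has its own promoter and first exon, joined to a common set of downstream exons, whereas most Ugt2 and Sult genes are separate genes that lie in clusters of close relatives.

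The livers came from mice at 45 days of age on an F1 background of C57Bl6 and CBA, and their sex is not given in the labels. WT stands for the genotype labelled Wild type. KO stands for Setd8lox/lox-Alb-Cre, in which a floxed exon of Setd8 (Kmt5a), the gene of a histone H4 lysine 20 methyltransferase, is cut by a Cre driven by the albumin promoter. That promoter is active in hepatocytes, and whether other cells of the liver kept the gene was not measured here. Messenger RNA was sequenced from untreated animals in 3 libraries of each genotype. For newly made RNA there was 1 library of each genotype by each of 2 methods. In the EU method, animals were injected with ethynyl uridine at 25 mg per kg body weight 30 min before death and labelled nuclear RNA was captured. In the Br method, isolated nuclei ran on for 3 min with bromouridine triphosphate. The 24 chromatin and input samples of the series were not analysed here. The labels do not say whether each mRNA replicate is a separate animal, so p-values measure only the spread between these libraries, which may be technical.

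Promoter sequences are shown first for 6 genes on which the results turn: Ugt1a5, Ugt2b38 and Sult1b1, whose mRNA was lower in KO, Sult1d1 and Sult5a1, whose nascent RNA was lower, and Ugt1a1, a Ugt1a gene of similar mRNA level in WT that is shown beside Ugt1a5. Each run is the 250 bases before the annotated start, 5′ to 3′ on the gene's strand, from RefSeq on build GRCm38.p6. Capitals mark matches on either strand to GTTAAT, a core of the binding site of the liver factor HNF1, or to GCGTG, the core bound by the aryl hydrocarbon receptor. No matches overlapped in these windows.
Ugt1a5, chr1:88165762-88166011, plus strand: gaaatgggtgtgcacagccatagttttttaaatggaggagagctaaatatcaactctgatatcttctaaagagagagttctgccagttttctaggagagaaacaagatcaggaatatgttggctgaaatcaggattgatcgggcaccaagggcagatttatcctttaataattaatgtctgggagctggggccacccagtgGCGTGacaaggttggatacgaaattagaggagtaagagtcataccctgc
Ugt1a1, chr1:88211709-88211958, plus strand: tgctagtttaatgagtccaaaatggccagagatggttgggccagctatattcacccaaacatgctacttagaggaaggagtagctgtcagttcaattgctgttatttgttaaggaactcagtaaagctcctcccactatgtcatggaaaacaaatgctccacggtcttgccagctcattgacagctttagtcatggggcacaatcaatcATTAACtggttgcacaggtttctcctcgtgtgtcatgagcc
Ugt2b38, chr5:87424204-87424453, minus strand: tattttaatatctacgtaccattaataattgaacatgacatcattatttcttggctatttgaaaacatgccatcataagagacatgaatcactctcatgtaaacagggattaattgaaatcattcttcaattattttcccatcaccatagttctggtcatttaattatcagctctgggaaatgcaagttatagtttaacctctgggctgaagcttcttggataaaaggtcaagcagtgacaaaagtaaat
Sult1b1, chr5:87538196-87538445, minus strand: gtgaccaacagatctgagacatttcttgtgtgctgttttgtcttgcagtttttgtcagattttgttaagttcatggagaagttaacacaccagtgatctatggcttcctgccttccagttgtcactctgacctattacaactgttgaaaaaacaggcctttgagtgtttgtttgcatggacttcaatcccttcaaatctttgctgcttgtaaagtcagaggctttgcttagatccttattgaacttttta
Sult1d1, chr5:87569007-87569256, minus strand: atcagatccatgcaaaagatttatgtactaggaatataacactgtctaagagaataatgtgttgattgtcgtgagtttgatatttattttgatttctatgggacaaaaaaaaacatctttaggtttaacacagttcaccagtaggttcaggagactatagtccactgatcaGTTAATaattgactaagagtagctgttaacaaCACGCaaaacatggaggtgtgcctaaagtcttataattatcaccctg
Sult5a1, chr8:123158281-123158530, minus strand: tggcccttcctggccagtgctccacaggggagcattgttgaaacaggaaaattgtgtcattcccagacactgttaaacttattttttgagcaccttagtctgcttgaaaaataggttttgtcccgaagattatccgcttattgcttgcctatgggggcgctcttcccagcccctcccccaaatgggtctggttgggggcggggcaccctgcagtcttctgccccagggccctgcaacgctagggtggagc

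Ugt1a1 held GTTAAT 41 bases before its start, on the opposite strand, and Ugt1a5 held GCGTG 49 bases before its start. Sult1d1 held both motifs, GTTAAT at 79 and GCGTG at 47 bases. The windows of Ugt2b38, Sult5a1 and the outer start of Sult1b1 held neither. Another annotated start of Sult1b1 held GCGTG 196 bases upstream. RefSeq promoters were matched for 36 of the 42 genes, with 39 starts in all. The genes without one were Sult2a1, Sult2a2, Sult2a7, Sult4a1, Ugt1a6b and Ugt3a2. GTTAAT was present in 13 of the 39 promoters (33.3%), against 6.43% of all 32851 promoters of the same length. GCGTG was present in 5 (12.8%), against 28.2%. The TATA box TATAAA stood in 10 of the 39 (25.6%, against 12.4% of all promoters), the STAT site TTCNNNGAA in 2 (5.13%, against 7.02%), and TTATGTAA, bound by PAR bZIP clock factors, in that of Ugt2b1 (2.56%, against 0.819%). The HNF4 site CAAAGTCCA and the antioxidant response core TGACNNNGC were in none, against 0.384% and 10.2% of all promoters. Members of a cluster share ancestry, so these shares are descriptions.

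Several of these genes share transcript sequence, and a read from a shared stretch cannot be assigned to its gene. In the annotated transcripts, 96.0% of the 50-base words of Ugt1a6a occurred in at least 1 other gene, as did 80.2% of those of Ugt1a1 and 64.0% of those of Ugt1a5. Ugt2b38 shared 37.4% of its words, 34.1% with Ugt2b5, which in turn shared 41.7% of its own. By contrast, Ugt2b1, Sult1b1 and Sult1d1 shared none, and Ugt2b36 0.31%. Sult2a2 shared 62.1% and Sult2a1 33.2%, largely with each other. How the authors counted shared reads is not given in the sources used here. Reads of the common Ugt1a exons were not counted to every Ugt1a gene, since Ugt1a2 held values of 10 to 19 while Ugt1a1 held 931 to 1446.

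**Figure D1:**
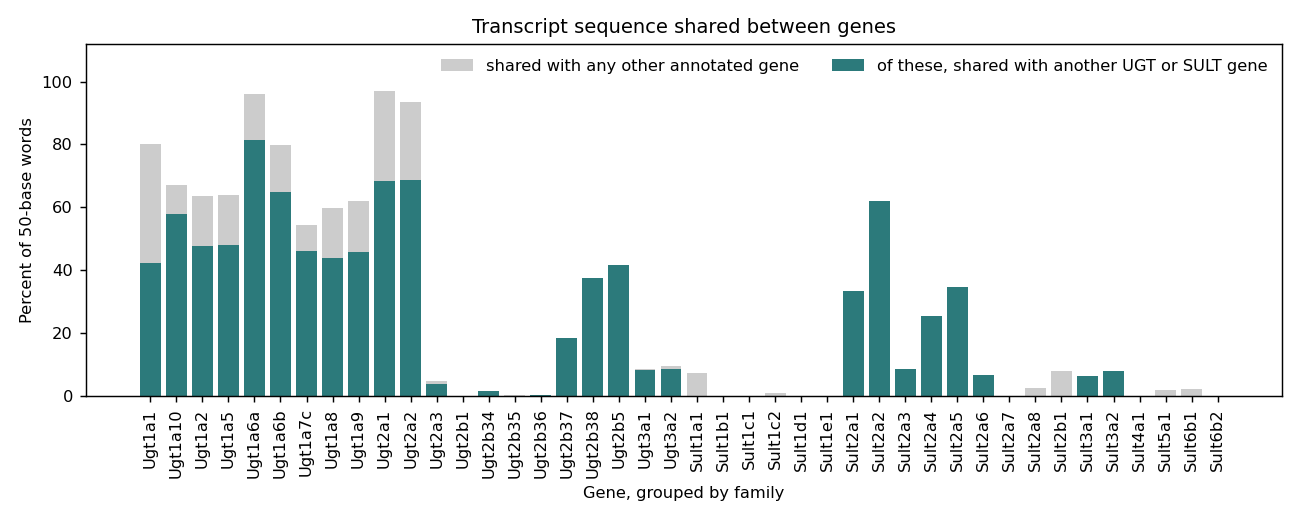
Percent of each gene's 50-base words (vertical axis) found in at least 1 other annotated gene (grey) and in another Ugt or Sult gene (green), for the 42 genes grouped by family along the horizontal axis. The Ugt1a genes, Ugt2a1, Ugt2a2 and Sult2a2 stand above 50%, whereas Ugt2b1, Sult1b1 and Sult1d1 are among the genes at 0.

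The mRNA values are reads per gene that the authors scaled between libraries and rounded, here called scaled values. They summed to between 18069344 and 25820906 per library. WT replicate 3 stood apart: 20077 genes were above 0 in it, where the other libraries had 24497 to 26247, and it lay at 121.5 on the first principal component (43.9% of the variance) against -46.2 to -6.11. Of the 13 Ugt and Sult genes with a mean of at least 1000 over all 6 libraries, all 13 were highest in WT replicate 3 among the WT libraries, and 12 were highest there of all 6 libraries. Its ratio to the mean of the other WT libraries ran from 1.28 to 2.83 over these genes, with a median of 1.82. Some genes below that cut differed in this: Ugt1a5 was not highest there among the WT libraries, and Ugt2b37 and Ugt2a2 were lowest there. Ugt1a5 had a WT mean of 1282 and fell below the cut through its low KO values. Calls without it are given beside the main ones. Kmt5a itself did not separate the groups, with 593, 615 and 1076 in WT and 1199, 1040 and 1075 in KO (log2 difference 0.59, SE 0.25, limma adjusted p = 0.244). It was called higher without WT replicate 3 (log2 0.87, limma adjusted p = 0.0198). KO below therefore means the libraries labelled KO.

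The most abundant transcripts per kilobase in WT came from 4 genes. Sult2a8, which sulfates bile acids in mouse liver, stood at 7634 ± 5018 scaled units per kb of transcript (SD, n = 3). Its first place rested on WT replicate 3, where its scaled value was 28765. In WT replicates 1 and 2 it had 9668 and 10647, below the 11294 and 10971 of Ugt2b5, whose transcript is shorter. Per kb, Ugt2b5 followed at 7128 ± 1970, Ugt2b36 at 7041 ± 2316 and Ugt2b1 at 5476 ± 2672. These genes were measured in the same libraries, and the SDs hold the rise of WT replicate 3 that they share. Overlap of the spreads, here and below, therefore cannot decide whether genes differ in level, and this was not tested. Sult1a1, the main phenol sulfotransferase, came next at 3468 ± 1379, followed by Ugt2b38 at 2601 ± 459, Ugt2b34 at 1859 ± 912, Ugt2a3 at 1729 ± 833, Ugt3a2 at 1651 ± 475 and Ugt2b35 at 1044 ± 512, with spreads that overlapped between neighbours. Below them stood the abundant Ugt1a genes, with Ugt1a6a at 699 ± 189, Ugt1a5 at 582 ± 96.9 and Ugt1a1 at 556 ± 122. Sult1d1 lay among them at 563 ± 266. The 15 genes with a row that were not tested, 14 Sult genes and Ugt1a8, never exceeded a scaled value of 28.

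Against this background 3 of the 25 tested genes were lower in KO and 0 higher by limma at an adjusted p under 0.05. Over all tested genes 1.36% were lower and 1.35% higher. The 3 were Ugt1a5, Sult1b1 and Ugt2b38, and edgeR on re-estimated reads called the same 3 lower and 0 higher (1.32% and 1.55% of all genes). Without WT replicate 3 limma called 5 lower and 0 higher, against 5.17% and 4.74% of all genes. At an unadjusted p under 0.05, 6 genes passed, all lower, against 20.0% of all genes in either direction. In the same number, 6, every KO library lay below every WT library (12.8% of all genes), and in 0 above (13.2%, and 26.0% for either direction). The log2 difference was below 0 for 20 of the 25, against 49.8% of all genes, with a median of -0.31. It was below 0 for 15 of the 25 without WT replicate 3, against 49.8% of all genes in that fit, with a median of -0.14. Summed over the Ugt genes the WT libraries held 54406, 58269 and 99388 scaled units and the KO libraries 39247, 57813 and 60412. The Sult genes summed to 14609, 17402 and 39099 against 9149, 16034 and 18635. Both sums overlapped between the groups. In bulk liver, fewer hepatocytes and less RNA per hepatocyte cannot be told apart.

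**Figure D2:**
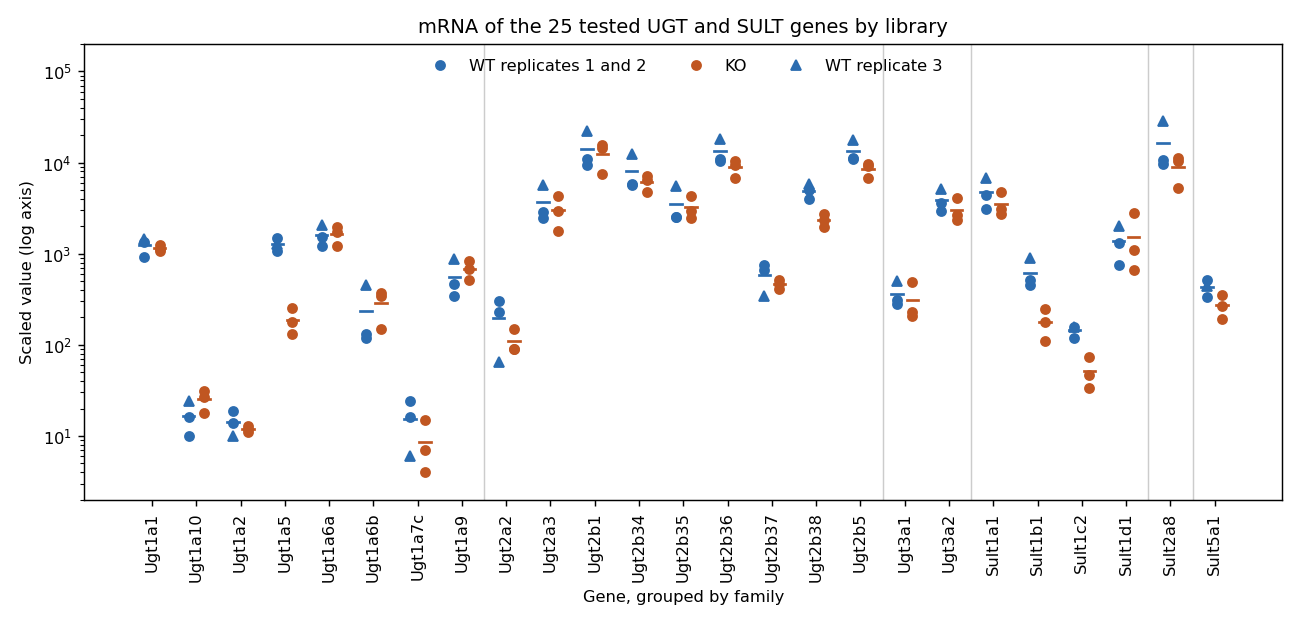
Scaled mRNA value (log axis) of the 25 tested genes in each of the 6 libraries, with a bar at the mean of each group, WT in blue and KO in orange. WT replicate 3 (triangles) is the highest WT library for each of the 13 genes with a mean of at least 1000, and Ugt1a5, Sult1b1, Sult1c2, Ugt2b38, Ugt2b5 and Ugt2b36 have all KO points below all WT points.

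**Figure D3:**
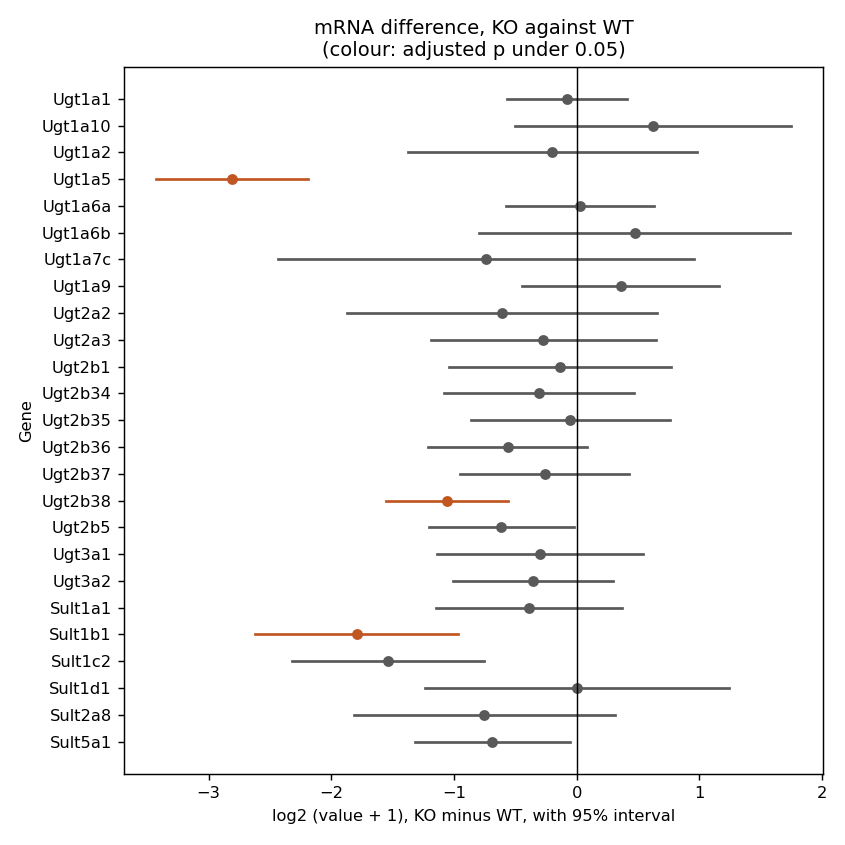
log2 difference in mRNA, KO minus WT, on the log2(value + 1) scale with its 95% interval from limma, for the 25 tested genes. The 3 called genes, in orange, lie at -2.81 (Ugt1a5), -1.79 (Sult1b1) and -1.06 (Ugt2b38), and the other 22 points lie between -1.54 (Sult1c2) and 0.62 (Ugt1a10).

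Within the Ugt1a locus 1 of 8 tested genes was called, lower in KO, against 1.36% of all genes. Ugt1a5 (ENSMUSG00000089943) was at 1071, 1498 and 1276 in the WT libraries and at 251, 180 and 130 in the KO libraries. All 3 KO libraries lay far below all WT libraries. The fall was 7.00-fold (log2 -2.81, SE 0.27, limma adjusted p = 0.0057; edgeR adjusted p = 0.00685). It was called with any of the 6 libraries left out, with log2 differences from -3.04 to -2.57. Without WT replicate 3 it was -2.80.

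None of the other 7 tested genes of the locus was called. Ugt1a1, the bilirubin glucuronosyltransferase, had 931, 1334 and 1446 in WT and 1130, 1240 and 1082 in KO. Its log2 difference was -0.08 (SE 0.21, 95% interval -0.57 to 0.41, limma adjusted p = 0.88), and the groups overlapped. Ugt1a6a, an enzyme for small phenols, had 1227, 1510 and 2078 against 1224, 1711 and 1941 (log2 0.03, SE 0.26, limma adjusted p = 0.972). Ugt1a9 at 346 to 868 in WT and 512 to 840 in KO, and Ugt1a6b at 118 to 453 and 151 to 369, also overlapped, with log2 differences of 0.36 and 0.47. Ugt1a2, Ugt1a7c and Ugt1a10 stayed between 4 and 31 in all libraries and were not called, and the untested Ugt1a8 lay between 2 and 15.

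As a share of the summed Ugt1a value, Ugt1a5 made up 27.7%, 30.7% and 20.7% in WT and 7.18%, 4.12% and 3.19% in KO, means of 26.4% ± 5.14 and 4.83% ± 2.09 (SD, n = 3 each). Ugt1a6a went from 32.1% ± 1.42 to 40.6% ± 6.46, Ugt1a1 from 25.0% ± 2.11 to 29.1% ± 2.94 and Ugt1a9 from 11.0% ± 3.57 to 17.1% ± 3.92. These shares sum to a fixed total, so a lower share of Ugt1a5 raises the others, and they carry no test. The summed value itself overlapped, at 3871, 4874 and 6163 in WT and 3496, 4366 and 4071 in KO.

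**Figure D4:**
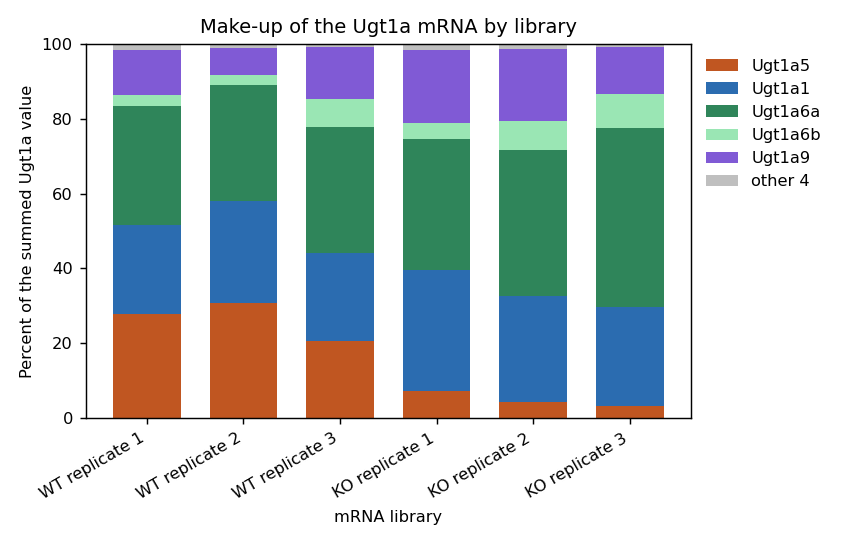
Percent of the summed scaled Ugt1a value (vertical axis) taken by each gene in each of the 6 mRNA libraries. Ugt1a5, at the bottom in orange, takes 20.7% to 30.7% in the WT libraries and 3.19% to 7.18% in the KO libraries.

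Among the Ugt2 genes, which glucuronidate steroids and drugs, 1 of 9 tested was called lower, against 1.36% of all genes. All 9 had a log2 difference below 0, against 49.8% of all genes. Without WT replicate 3, 5 of the 9 were below 0, against 49.8% of all genes in that fit. Ugt2b38 (ENSMUSG00000061906) had 4018, 4988 and 5750 in WT and 1977, 2350 and 2736 in KO. The groups did not overlap. The fall was 2.08-fold (log2 -1.06, SE 0.22, limma adjusted p = 0.0466). Without WT replicate 3 it stayed called (log2 -0.94, limma adjusted p = 0.0288), and with any of the other 5 libraries left out it missed the threshold, with log2 differences of -1.20 to -0.94 over all 6 and adjusted p of up to 0.211.

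Ugt2b5, its closest relative by shared words, had 11294, 10971 and 17466 in WT and 6797, 9259 and 9604 in KO, log2 -0.61 (SE 0.26, limma adjusted p = 0.231). Ugt2b36 had 11028, 10516 and 18334 against 6736, 9512 and 10277, log2 -0.56 (SE 0.28, limma adjusted p = 0.316). For both genes every KO library lay below every WT library, yet neither passed the test. Ugt2b1 had 9325, 10973 and 21972 against 7575, 14496 and 15487 and overlapped (log2 -0.13, SE 0.39, limma adjusted p = 0.895). Without WT replicate 3 its difference was 0.24.

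The remaining Ugt2 genes overlapped between the groups. Ugt2b34 ranged from 5668 to 12557 in WT and 4750 to 7192 in KO, Ugt2a3 from 2433 to 5682 and 1794 to 4269, and Ugt2b35 from 2511 to 5493 and 2434 to 4300. Their log2 differences were -0.31, -0.27 and -0.05, and without WT replicate 3 they were 0.07, 0.10 and 0.32. Ugt2b37 ranged from 344 to 752 and 411 to 519 (log2 -0.26). The gene named Ugt2a2 in the annotation used here, and Ugt2a1 in the authors' RPKM table, shares 93.6% of its words with other genes. It had 227, 301 and 64 in WT and 151, 90 and 90 in KO (log2 -0.61, limma adjusted p = 0.594). WT replicate 3 was its lowest library, and without it the difference was -1.28 and passed the test (limma adjusted p = 0.0366).

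The Ugt3a enzymes use other UDP sugars as donors. Ugt3a2 had 2904, 3565 and 5064 in WT and 2352, 2639 and 4037 in KO (log2 -0.35, SE 0.28, limma adjusted p = 0.541). Ugt3a1 had 314, 279 and 499 against 232, 209 and 483 (log2 -0.30, SE 0.36, limma adjusted p = 0.712). Both overlapped and neither was called.

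Of the Sult1 genes 4 were tested and 1 was called lower, against 1.36% of all genes. Sult1b1 (ENSMUSG00000029269), known for sulfation of thyroid hormones, had 451, 508 and 891 in WT and 110, 180 and 245 in KO. All KO libraries lay below all WT libraries. It fell 3.46-fold (log2 -1.79, SE 0.36, limma adjusted p = 0.0451). The call stood without WT replicate 3 (log2 -1.49, limma adjusted p = 0.027). It missed the threshold with any of the other 5 libraries left out, with log2 differences from -2.06 to -1.48 and adjusted p of up to 0.182.

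Sult1c2, a phenol sulfotransferase, was close to the threshold on the other side. Its values were 119, 158 and 158 in WT and 34, 47 and 73 in KO, which did not overlap, and the log2 difference was -1.54 (SE 0.34) at a limma adjusted p of 0.0562. It was called without WT replicate 3 (log2 -1.47, limma adjusted p = 0.0442), as it was without KO replicate 3 (log2 -1.82, limma adjusted p = 0.0492). Sult1c2 shares 0.723% of its words with another gene, so shared reads touch it little.

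The more abundant Sult1 genes overlapped between the groups. Sult1a1 had 3066, 4396 and 6793 in WT and 2750, 3113 and 4752 in KO (log2 -0.39, SE 0.33, limma adjusted p = 0.566). Sult1d1, which sulfates catecholamines in mice, had 746, 1312 and 2029 against 661, 1085 and 2785 (log2 0.00, SE 0.54, 95% interval -1.24 to 1.24, limma adjusted p = 0.999). That interval is wide, and with a library left out the difference ran from -0.57 to 0.47. The estrogen sulfotransferase Sult1e1 (1, 3 and 7 in WT, 13, 5 and 10 in KO) and Sult1c1 (0 to 7) were too low to test.

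Sult2a8 was the only abundant gene of the Sult2 and Sult3 groups. Its values were 9668, 10647 and 28765 in WT and 5282, 11163 and 10480 in KO, which overlapped (log2 -0.75, SE 0.46, limma adjusted p = 0.416). Of the summed Sult2 and Sult3 value it took 99.9% ± 0.0858 in the WT and 99.2% ± 0.815 in the KO libraries (SD, n = 3 each). The others lay at the floor of the measurement. Sult2a1, a hydroxysteroid sulfotransferase known to be female-predominant in mouse liver, was listed at 0 in all 3 WT libraries and at 22, 19 and 3 in KO. Sult2a2, which shares 41.3% of its words with it, was at 1, 0 and 0 against 28, 24 and 3. Sult3a1, an amine sulfotransferase also known as female-predominant, was at 5, 1 and 6 against 15, 17 and 0.

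Sult3a2 was listed at 0 in all WT libraries and at 9, 1 and 1 in KO. For Sult2a1, Sult2a2 and Sult3a2 every KO library lay above every WT library. All 3 genes were below the filter, so they carry no test in the main comparison. The share of such separation among all genes below the filter was not counted, and KO values as low as 1 set Sult3a2 apart. With no filter, Sult2a1 passed (limma adjusted p = 0.0478), in a fit that called 306 of 30020 genes higher. Sult2a3, Sult2a4, Sult2a5 and Sult2a6 stayed between 0 and 6 and Sult2b1 between 0 and 10. Of the remaining group, Sult5a1 overlapped, with 514, 334 and 447 in the WT and 194, 349 and 270 in the KO libraries (log2 -0.69, SE 0.27, limma adjusted p = 0.214). Sult4a1, a brain sulfotransferase, lay between 0 and 12, Sult6b1 between 0 and 9 and Sult6b2 between 0 and 3.

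The nascent RNA libraries ask which of these genes were transcribed differently at the time of sampling. With 1 library per genotype and method there is no replicate check and no test, and intervals below are exact 95% intervals for counting error only. Ratios are log2 of KO over WT RPKM plus 0.5, centred on the median gene. They cover genes with an RPKM row and at least 20 reads in both libraries together. The authors' RPKM values imply gene lengths far from transcript lengths (77 bases for Ugt1a1), so they are compared within a gene only. In EU, 24 of these genes were covered: 4 were at least 2-fold lower in KO, against 18.8% of all covered genes, and 1 was at least 2-fold higher, against 18.9%. Ugt1a8 and Ugt1a6b had enough EU reads but no RPKM row and are outside these counts. From reads scaled to the library totals their EU ratios were 1.55 and 1.07. In Br, 21 were covered: 3 were at least 2-fold lower, against 4.68%, and 0 higher, against 5.54%. All of these lower genes were sulfotransferases. In both methods 3 of 21 were at least 2-fold lower, against 1.49% of all genes covered in both, and 0 higher, against 2.06%.

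Sult1d1 went from 4415 EU reads in WT to 122 in KO, a ratio of -4.15 (interval -4.43 to -3.90), and from 83 to 21 Br reads, a ratio of -1.51 (-2.30 to -0.83). Sult1a1 went from 739 to 33 EU reads (-3.37, interval -4.02 to -2.97) and from 384 to 100 Br reads (-1.48, interval -1.82 to -1.17). Sult5a1 went from 572 to 2 EU reads (-6.35, interval -10.19 to -5.29) and from 83 to 22 Br reads (-1.44, interval -2.21 to -0.77). For each of the 3 genes the interval excluded 0 in both methods, and the EU ratio was the more negative. Their mRNA differences were 0.00, -0.39 and -0.69, none of them called. The EU libraries differed in depth, with 10833287 reads in WT and 5583983 in KO, and the Br libraries held 3156055 and 2317840.

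Sult1c2 went from 50 EU reads to 0. Against the 3 reads that a count of 0 allows, this was at least 8.25-fold lower. The exact 95% interval, which also covers the error of the WT count, reaches up to a log2 ratio of -2.69. Its Br reads, 18 and 11, gave a ratio of -0.25 (interval -1.49 to 0.90). Sult1b1, the sulfotransferase called lower in mRNA, was not lower in nascent RNA beyond counting error, with 156 and 97 EU reads (0.30, interval -0.05 to 0.70) and 24 and 13 Br reads (-0.33, interval -1.53 to 0.60). Sult1b1 and Sult1d1 lie close together on the same strand of chromosome 5, and their printed windows begin at 87538196 and 87569007. Sult1b1 was called lower in mRNA only, and Sult1d1 was past 2-fold in nascent RNA only, but the difference between the 2 genes was not tested. Sult2a8 had 7088 and 3167 EU reads (-0.15, interval -0.21 to -0.09) and 502 and 278 Br reads (-0.38, interval -0.62 to -0.19).

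**Figure D5:**
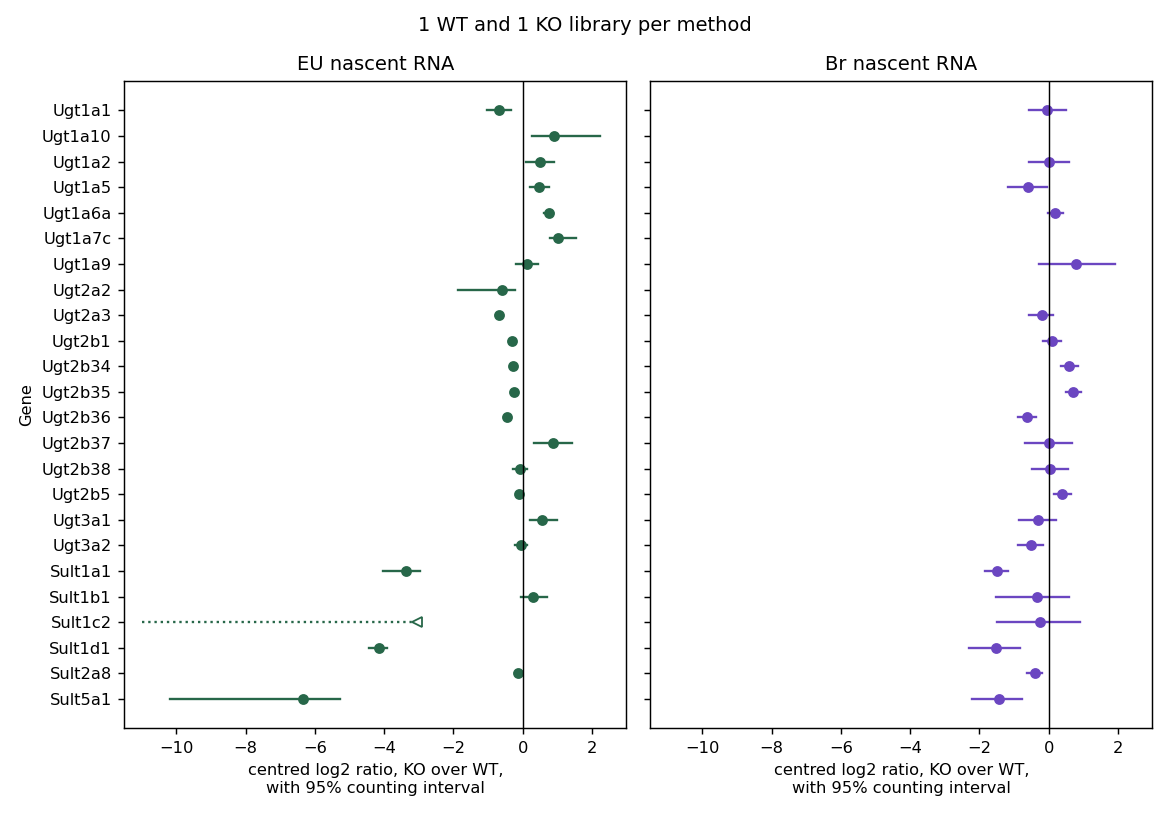
Centred log2 ratio of nascent RNA, KO over WT, by EU (left) and Br (right), with 95% counting intervals. Genes with an RPKM row and at least 20 reads over both libraries are shown. The open triangle is the bound for Sult1c2, which had 0 EU reads in KO. Sult1a1, Sult1d1 and Sult5a1 lie below -1 in both methods, whereas the Ugt genes shown lie between -0.69 and 1.01.

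No Ugt gene with an RPKM row was 2-fold lower in either method. Ugt1a5, with the largest called fall in mRNA, went from 275 to 191 EU reads (0.49, interval 0.21 to 0.76) and from 85 to 41 Br reads (-0.60, interval -1.18 to -0.05). The methods thus lay on opposite sides of 0, and neither reached the mRNA difference of -2.81. Ugt1a1 had 299 and 93 EU reads (-0.67, interval -1.02 to -0.33) and 74 and 53 Br reads (-0.03, interval -0.57 to 0.50). Ugt1a6a had 1017 and 852 EU reads (0.75) and 373 and 314 Br reads (0.20).

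Ugt1a7c was the gene with an RPKM row above 2-fold in EU, with 114 and 127 reads (1.01, interval 0.79 to 1.55), and had 2 and 9 Br reads. That interval reaches below 1. Ugt1a8 and Ugt1a6b have no RPKM row. From reads scaled to the library totals their EU ratios were 1.55 (117 and 172 reads) and 1.07 (356 and 374 reads), and the Br ratio of Ugt1a6b was -0.87 (71 and 28 reads). Unspliced transcripts of an upstream Ugt1a gene run through the first exons of the genes downstream, so nascent reads cannot be assigned to these genes with certainty. Ugt1a2, Ugt1a9 and Ugt1a10 had EU ratios of 0.50, 0.13 and 0.92.

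The Ugt2 genes had EU ratios from -0.69 for Ugt2a3 (5038 and 1539 reads) to 0.88 for Ugt2b37 (60 and 55 reads). Ugt2b38 had 581 and 273 EU reads (-0.07, interval -0.29 to 0.13) and 77 and 58 Br reads (0.04, interval -0.48 to 0.55), against its mRNA difference of -1.06. In Br the range was from -0.62 for Ugt2b36 (417 and 198 reads) to 0.70 for Ugt2b35 (324 and 391 reads). Ugt2b34 (0.59) and Ugt2b5 (0.40) also lay above 0 in Br with intervals that excluded it, although in EU they lay at -0.27 and -0.10. Ugt3a2 was at -0.05 in EU and -0.51 in Br, and Ugt3a1 at 0.58 and -0.30. Under 20 reads in both methods were found for 14 of the genes with a row, Sult2a1 and Sult2a2 among them with 0 EU reads.

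Across genes, the 3 measures ranked the members differently. Over 21 genes the Spearman correlation of the EU and Br ratios was 0.383 (Pearson 0.679). That of mRNA differences with EU ratios was 0.112 over 24 genes (Pearson 0.078) and with Br ratios 0.429 over 21 (Pearson 0.239). These are descriptions across genes, which share libraries and, in the clusters, reads.

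Genes that supply, remove, export or regulate the conjugation system were described from lists of 47 genes, 45 of them tested. In these lists limma and edgeR each called 1 gene lower and 0 higher, against 1.36% lower and 1.35% higher over all genes by limma. At an unadjusted p under 0.05, 13 of the 45 passed by limma, against 20.0% of all genes. The median log2 difference was -0.22. The called gene was Esr1, the estrogen receptor alpha, at 403, 303 and 703 in WT and 133, 126 and 82 in KO (log2 -1.98, SE 0.35, limma adjusted p = 0.0307). Its groups did not overlap. It missed the threshold with any library other than WT replicate 3 left out, with log2 differences from -2.25 to -1.64. With that library left out limma called 4 of the 45 lower, against 5.17% of all genes, and 1 higher, against 4.74%: Esr1, Slc35d1, Ppara and Tpst2 were lower and Slc35b1 was higher.

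Among 6 tested genes of UDP-glucuronic acid supply limma called 0, with 3 at an unadjusted p under 0.05, and among 8 of PAPS supply 0, with 1, where 20.0% of all genes passed that threshold. Slc35d1, which carries UDP-glucuronic acid into the endoplasmic reticulum, had 3236, 3466 and 4849 in WT and 2301, 1954 and 1627 in KO (log2 -0.96, SE 0.23, limma adjusted p = 0.0664). The groups did not overlap. It was called without WT replicate 3 (log2 -0.79, limma adjusted p = 0.0426), as was Slc35b1, which was then higher (log2 0.77, limma adjusted p = 0.0438). Ugp2, which makes UDP-glucose, was at -0.93 on the log2 scale (SE 0.37, limma adjusted p = 0.215). On the sulfate side, the Golgi PAPS carrier Slc35b2 had 2342, 1886 and 4389 against 1526, 1288 and 1172 (log2 -1.02, SE 0.31, limma adjusted p = 0.122), and the sulfate transporter Slc26a1 a difference of 0.45 (limma adjusted p = 0.256). The PAPS synthases Papss1 and Papss2 were at -0.12 and -0.09.

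Of 19 receptors and liver transcription factors, Esr1 was the called gene. Ppara, the fatty acid receptor, was at -0.73 (SE 0.17, limma adjusted p = 0.0667) and Arnt, the partner of the aryl hydrocarbon receptor, at -0.63 (SE 0.17, limma adjusted p = 0.0928). Ppara was called lower without WT replicate 3 (log2 -0.69, limma adjusted p = 0.0434). Of the receptors that are known to induce these enzymes, Nr1i3 (CAR) was at -0.58 and Nr1i2 (PXR) at -0.28, and Ahr at 0.43, none of them called. Of 6 genes read as reporters of such receptors 1 was called higher, the PPARα target Cyp4a14, against 1.35% of all genes. Cyp4a14 had 64, 90 and 58 in WT and 30918, 19945 and 24260 in KO (log2 8.45, SE 0.24, limma adjusted p = 6.11e-06). Among 7 transporters of conjugates limma called 0, with 3 at an unadjusted p under 0.05, against 20.0% of all genes. Abcc4, an exporter of sulfated steroids, had 37, 36 and 38 in WT and 117, 111 and 48 in KO (log2 1.19, SE 0.40, limma adjusted p = 0.149), and Abcc3 was at -0.63 (limma adjusted p = 0.171). The glucuronidase Gusb (0.40), which takes glucuronides apart, and the sulfatase Arsb (0.45) were not called with all libraries. Nor were the tyrosine sulfotransferases Tpst2 (-0.60) and Tpst1 (-0.23). Tpst2 was called lower without WT replicate 3 (log2 -0.83, limma adjusted p = 0.0345).

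Lists of sex-biased liver genes and of cell markers are given as values, since many conjugating enzymes differ by sex and cell type. Of 12 female-biased genes limma called 5 higher and 0 lower, and of 11 tested male-biased genes 3 lower and 0 higher, against 1.35% higher and 1.36% lower over all genes. These counts were 8 higher and 3 lower without WT replicate 3, against 4.74% and 5.17%. Over all 6 libraries the Y-linked genes ran from 231 to 288 (Kdm5d), 459 to 1266 (Ddx3y), 461 to 1114 (Eif2s3y) and 80 to 227 (Uty). Xist ran from 12 to 88, and 0 of these 5 genes were called. The part of sex-biased expression in the results above was not tested. Of 8 hepatocyte markers 0 were called, and their summed scaled value was 1797006 to 2842297 in WT and 1791056 to 2056384 in KO. Macrophage markers summed to 3892 to 4516 in WT and 6529 to 11729 in KO, with 1 of 8 called (Csf1r, higher), against 1.35% of all genes higher. Stellate cell markers summed to 3074 to 4516 and 5874 to 7168, with 1 of 8 called (Pdgfrb, higher). Bile duct markers summed to 974 to 1406 and 1705 to 2505, with 1 of 8 called (Spp1, higher), both against the same 1.35%. The bile duct difference was that of Spp1, at 263, 301 and 470 in WT and 1569, 1387 and 803 in KO: without it the other 7 markers summed to 673 to 936 in WT, and KO replicate 1 stood at 936 too, so that the groups overlapped. The macrophage sum without Csf1r (3297 to 4053 and 5326 to 9135) and the stellate sum without Pdgfrb (2956 to 4382 and 5553 to 6769) still did not overlap. Leaving out the called gene was chosen after these sums were seen. Endothelial markers (6862 to 7527 and 6728 to 8146) and lymphocyte markers (155 to 308 and 228 to 548) overlapped with 0 calls. Without WT replicate 3 the markers called higher were 4 of 8 macrophage, 3 of 8 stellate cell, 1 of 8 endothelial and 1 of 8 bile duct markers. Over all genes 4.74% were called higher in that fit. No defining marker of these lists was at 0 in a whole group, and the part of these cells in the falls of Ugt1a5, Sult1b1 and Ugt2b38 was not tested.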

How the data were processed

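For mRNA the deposited unit is a score, reads per gene scaled by the authors with DESeq (per the submitters' processing notes) and rounded to whole numbers. For nascent RNA it is the deposited count per gene. All Br values were even, so Br counts were divided by 2. The authors also deposited an RPKM table of the nascent libraries, in which 38 of the 42 genes had a row. The submitters' processing notes also name TopHat2, Bowtie2, Cufflinks and build mm9, and the counter and annotation are not given in the sources used here. Gene names came from GENCODE, which named 32860 of 37583 identifiers. Members and gene lists were chosen with earlier results of these data known.

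The mRNA test was limma 3.58.1 (R 4.3.3; trend and robust) on log2(value + 1), with no block, over genes that reached 10 in 3 or more libraries, two-sided, with Benjamini-Hochberg adjustment over all genes tested and calls at an adjusted p under 0.05. Fold changes are on that scale and understate those of low genes. Raw counts were not at hand for mRNA, so edgeR 4.0.16 (TMM, quasi-likelihood) on reads re-estimated from the rounding steps (15640582 to 27108677 per library) was an alternative. Others were TMM scaling, pseudocounts of 0.5 and 10, no filter, a replicate block and each library left out. Nascent ratios were recomputed with pseudocounts of 0.1 and 2 RPKM, no centring and reads scaled to the library total. The medians removed by centring were -0.06 (EU) and -0.0048 (Br), on the log2 scale. Nascent intervals are exact (Clopper-Pearson) and use reads without the added RPKM.

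Genes were named by a rule: called genes, genes whose groups did not overlap at an absolute log2 difference of at least 1, the 3 most abundant genes of each family, up to 2 further genes with the smallest p per list, and all genes with at least 20 nascent reads. Further partner genes (Papss1, Papss2, Nr1i3, Nr1i2 and Ahr) were named after their values were seen. Same-numbered WT and KO libraries correlated at 0.409, -0.242 and 0.198 in their deviations from the group means. With 3 libraries a group and WT replicate 3 standing apart, these values cannot decide whether the numbers pair the libraries. The limma step was tested on simulated counts.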

Additional observations from a re-analysis of the deposited data

How the results depend on the processing

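Ugt1a5 was called lower in mRNA under every alternative run, with limma or edgeR adjusted p from 4.97e-05 to 0.0456. With each library left out in turn, 1 to 5 of the Ugt and Sult genes were called lower and 0 higher. The 5, without WT replicate 3, were Ugt1a5, Sult1b1, Ugt2b38, Sult1c2 and Ugt2a2. Over all genes these fits called from 15 to 869 lower. With no filter 1 gene, Sult2a1, was called higher, against 306 of 30020 over all genes. Partner genes called lower numbered 0 to 4 with a library left out, 2 with no filter and 2 with the replicate block. The 4 were Esr1, Slc35d1, Ppara and Tpst2, without WT replicate 3. Those called higher numbered 0 to 1. No paired design is given by the labels. The replicate block called 4 Ugt and Sult genes lower (adding Sult1c2, limma adjusted p = 0.0285) and 0 higher, against 514 lower and 500 higher over all genes. In EU, Ugt and Sult genes with an RPKM row that were at least 2-fold higher numbered 2 with a pseudocount of 0.1. They numbered 0 with a pseudocount of 2, 0 without centring and 2 from reads.

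With a library left out, log2 differences of uncalled genes changed sign for Sult1d1 (-0.57 to 0.47), Ugt1a1 (-0.27 to 0.044), Ugt1a2 (-0.42 to 0.014), Ugt1a6a (-0.15 to 0.23), Ugt2a3 (-0.57 to 0.10), Ugt2b1 (-0.38 to 0.24), Ugt2b34 (-0.50 to 0.069) and Ugt2b35 (-0.28 to 0.32). The cause was not tested. The EU ratios of Sult5a1 and Ugt1a7c were -5.18 and 0.73 with a pseudocount of 2 RPKM. Low read numbers limit Sult1c2, Sult1b1 and Ugt1a9 in Br and the Sult2a genes in all libraries.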
